A study of Rattus norvegicus with 32 samples.

Results

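The question addressed here is whether skeletal muscle of rats that lack uncoupling protein 1 (UCP1) answered prolonged cold differently from muscle of control rats. For each gene the cold response of knockout muscle minus the cold response of control muscle, the interaction, was computed from the raw counts of all 32 deposited libraries. No gene was preselected: the deposited table held 12901 genes, and 11594 of them had enough counts to be tested. A positive interaction means that a gene rose more, or fell less, in the cold in knockout than in control muscle, and a negative one the reverse.

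The gastrocnemius, a calf muscle, was taken from male rats of 20 weeks, chow-fed per the series title. There were 7 libraries from control rats at room temperature (control_RT), 7 from control rats after 2 weeks at 4 °C (control_4C), 9 from UCP1 knockout rats at room temperature (KO_RT) and 9 from knockout rats after 2 weeks at 4 °C (KO_4C). The labels call the control rats control or wild-type; the sources used here give neither strain nor knockout allele. They also do not say whether the room temperature and cold samples of a genotype came from different animals, so the p-values measure the spread between these samples. The RNA was sequenced from transcript 3′ ends (QuantSeq libraries), and levels are given as CPM, the count of a gene scaled by the size of its library.

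UCP1 is the proton carrier with which brown adipocytes turn the mitochondrial proton gradient into heat. Rodents without it can still live in the cold when given time to acclimate, and muscle is a candidate site of the remaining heat production, through shivering and through calcium cycling. In calcium cycling without contraction, sarcolipin (Sln) binds the sarcoplasmic reticulum calcium pump SERCA and makes it spend ATP while moving less calcium. Lasting contractile work is also known to move muscle toward slow oxidative fibres.

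Before the results, several library measures that differed between or within groups are given. Library totals ran from 7275508 to 25846976 counts, and Acta1 and Ckm, which encode skeletal actin and muscle creatine kinase, averaged 40753 and 17523 CPM, so the tissue label was met by its markers. The targeted gene, Ucp1, was not analysed here and gave no check of the genotype labels; nor were Myh2, Myh4 and Atp2a1 analysed. From genes with a mean of at least 10 CPM, 74 were picked with the data in view. In the library of column KO10 they stood at least 2 log2 units below the median of the other KO_RT libraries. Their mean log2 CPM is a further measure, the transcript-loss index. In control muscle its mean was 3.90 ± 0.72 at room temperature and 5.43 ± 0.13 at 4 °C (SD, n = 7 each); in knockout muscle it was 4.84 ± 1.05 and 5.40 ± 0.20 (SD, n = 9 each). KO10, at 2.69, and KO8, at 3.38, stood apart from the other 7 KO_RT libraries, which held 5.08 to 5.55. The index of control_RT did not overlap that of control_4C (exact two-sided permutation test, p = 0.000583, adjusted p = 0.00437 over 60 library tests), whereas KO_RT and KO_4C overlapped (exact permutation p = 0.172). KO8 also had the highest Ryr1, Myh1 and Actn3 of its group. The index genes were picked for low values in KO10, a KO_RT library. Its low index, the spread of KO_RT and the overlap with KO_4C were therefore in part set by that choice. By group means, with no test of the difference, the index moved with cold more in control than in knockout muscle (1.53 against 0.55). The interactions of the called genes are therefore also given without KO8 and KO10, as are those of some genes in which these libraries stood apart. For others, such as Mob1a and Acat1, they are not given. The part of the index in the interaction was not tested.

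**Figure D1:**
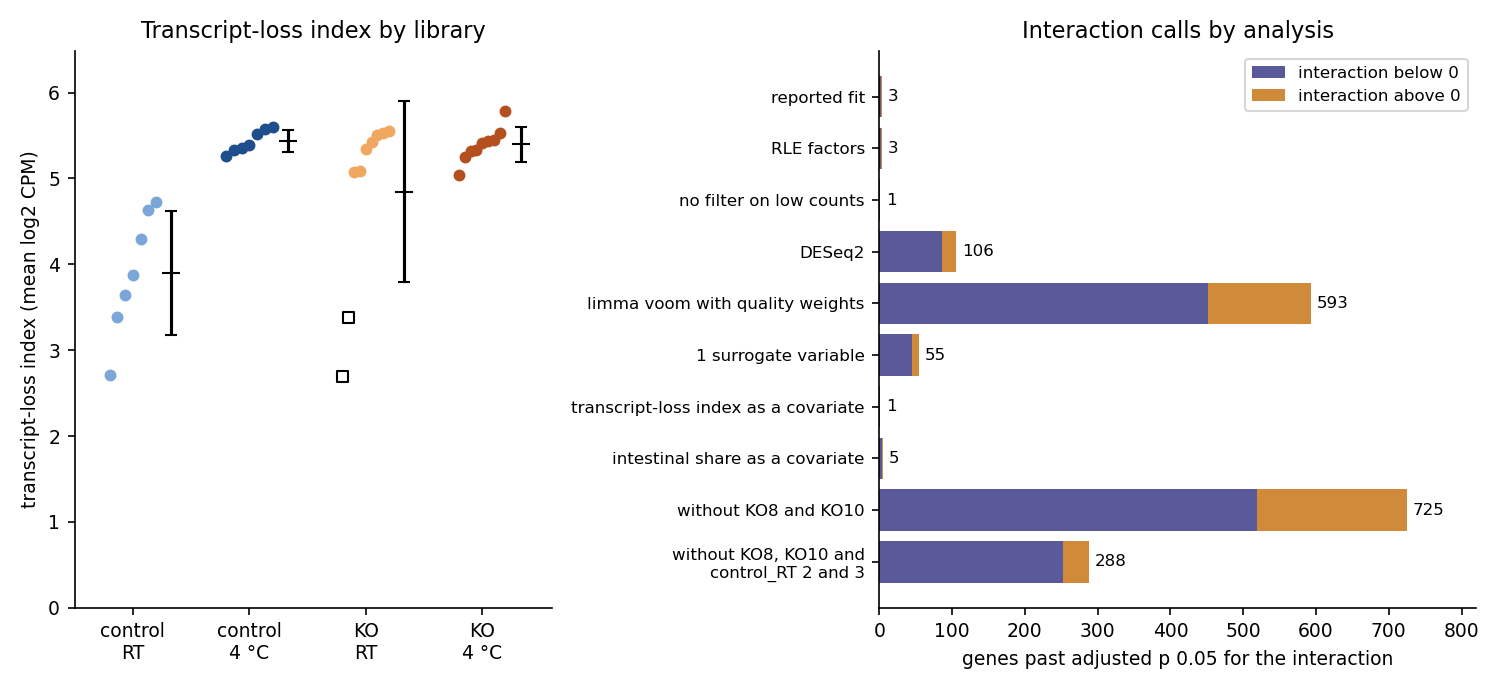
Left, the transcript-loss index (mean log2 CPM of 74 genes) of each library by group, with mean and SD as bars; open squares are KO8 and KO10. Right, the number of genes past an adjusted p of 0.05 for the interaction under 10 analyses, 3 in the reported fit and up to 725 without KO8 and KO10.

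Very few genes passed the test for a genotype-dependent cold response. With edgeR's quasi-likelihood test and Benjamini-Hochberg adjustment over all genes tested, 3 genes passed at 0.05 (0.0259% of those tested). Klhl38 lay higher (0.00863% of genes tested), and Asah2 and LOC100360316 lay lower (0.0173%). At an unadjusted p under 0.05 stood 1499 genes (12.9%), of which 870 were lower (7.5%) and 629 higher (5.43%). The median interaction over all genes was -0.02 log2 and the median standard error (SE) 0.25. For comparison, in the same fit cold called 2399 genes in control muscle (20.7%), 1439 higher (12.4%) and 960 lower (8.28%). It called 1596 in knockout muscle (13.8%), 868 higher (7.49%) and 728 lower (6.28%).

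Klhl38, which encodes a kelch-like protein of striated muscle, moved in opposite directions in the 2 genotypes. Its level was 20.5, 23.1 and 28.8 CPM in control_RT (lowest, median and highest library) and 15.4, 17.8 and 23.8 CPM in control_4C. In knockout muscle it was 17.9, 20.7 and 26.6 CPM at room temperature and 22.2, 27.5 and 36.8 CPM at 4 °C. The ranges overlapped within each genotype, and 6 of the 9 KO_4C libraries stood above every control_4C library and above every KO_RT library. Klhl38 thus fell in control muscle (log2 -0.41 ± 0.12 SE, adjusted p = 0.0158) and rose in knockout muscle (0.42 ± 0.11, adjusted p = 0.00714). The interaction was 0.82 ± 0.16 log2 (95% interval 0.49 to 1.15, edgeR quasi-likelihood adjusted p = 0.0479). It was the only gene called for cold in both genotypes with opposite signs. At 4 °C knockout muscle held more Klhl38 than control muscle (log2 0.62, adjusted p = 0.0292), while at room temperature the difference was -0.20 (adjusted p = 0.379). Leaving out 1 library at a time kept the interaction between 0.77 and 0.88, with an adjusted p from 0.00524 to 0.111 and a call in 9 of 32 cases.

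Asah2, the neutral ceramidase that cleaves ceramide at membranes, rose in the cold in control muscle. Control libraries held 4.17, 5.92 and 8.37 CPM at room temperature and 9.32, 10.8 and 23.0 CPM at 4 °C, with no overlap. Knockout libraries held 6.71, 11.2 and 14.0 CPM at room temperature and 7.18, 9.28 and 10.5 CPM at 4 °C. In words, control_RT was the low group, and the cold knockout libraries lay inside the range of the warm ones. The cold response was 1.02 ± 0.19 log2 in control muscle (adjusted p = 0.000291) and -0.25 ± 0.17 in knockout muscle (adjusted p = 0.348). The interaction was -1.28 ± 0.25 (95% interval -1.79 to -0.76, adjusted p = 0.0479), and it was called in 11 of the 32 fits that left out 1 library.

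In LOC100360316 control_RT was again the low group. The gene carries a placeholder symbol; by its Entrez ID, RefSeq (assembly GRCr8) lists it as Hmgn2-ps4, a pseudogene, so reads of near-identical HMGN2 transcripts could have been counted there and its value is uncertain. Control libraries held 4.15, 4.94 and 5.59 CPM at room temperature and 10.4, 12.4 and 19.5 CPM at 4 °C, again without overlap. Knockout libraries held 5.85, 10.1 and 14.5 CPM at room temperature and 5.57, 9.92 and 12.8 CPM at 4 °C, so both knockout groups spanned nearly the same range, above control_RT except for the lowest KO_4C library. The interaction was -1.34 ± 0.25 log2 (95% interval -1.84 to -0.84, adjusted p = 0.0441), called in 15 of 32 fits without 1 library. Without KO8 and KO10 all 3 genes were called, at 0.87 for Klhl38, -1.33 for Asah2 and -1.44 for LOC100360316 (adjusted p = 0.00116, 0.00152 and 0.000349). With the index as a covariate none of the 3 kept its call: the interaction was 0.81 for Klhl38 (adjusted p = 0.0638), -1.08 for Asah2 and -1.01 for LOC100360316 (adjusted p = 0.1001 for both). The index of control_RT did not overlap that of control_4C, so this fit cannot fully separate the index from the cold response of control muscle. It called 384 genes for cold in control muscle, against 2399 in the reported fit.

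**Figure D2:**
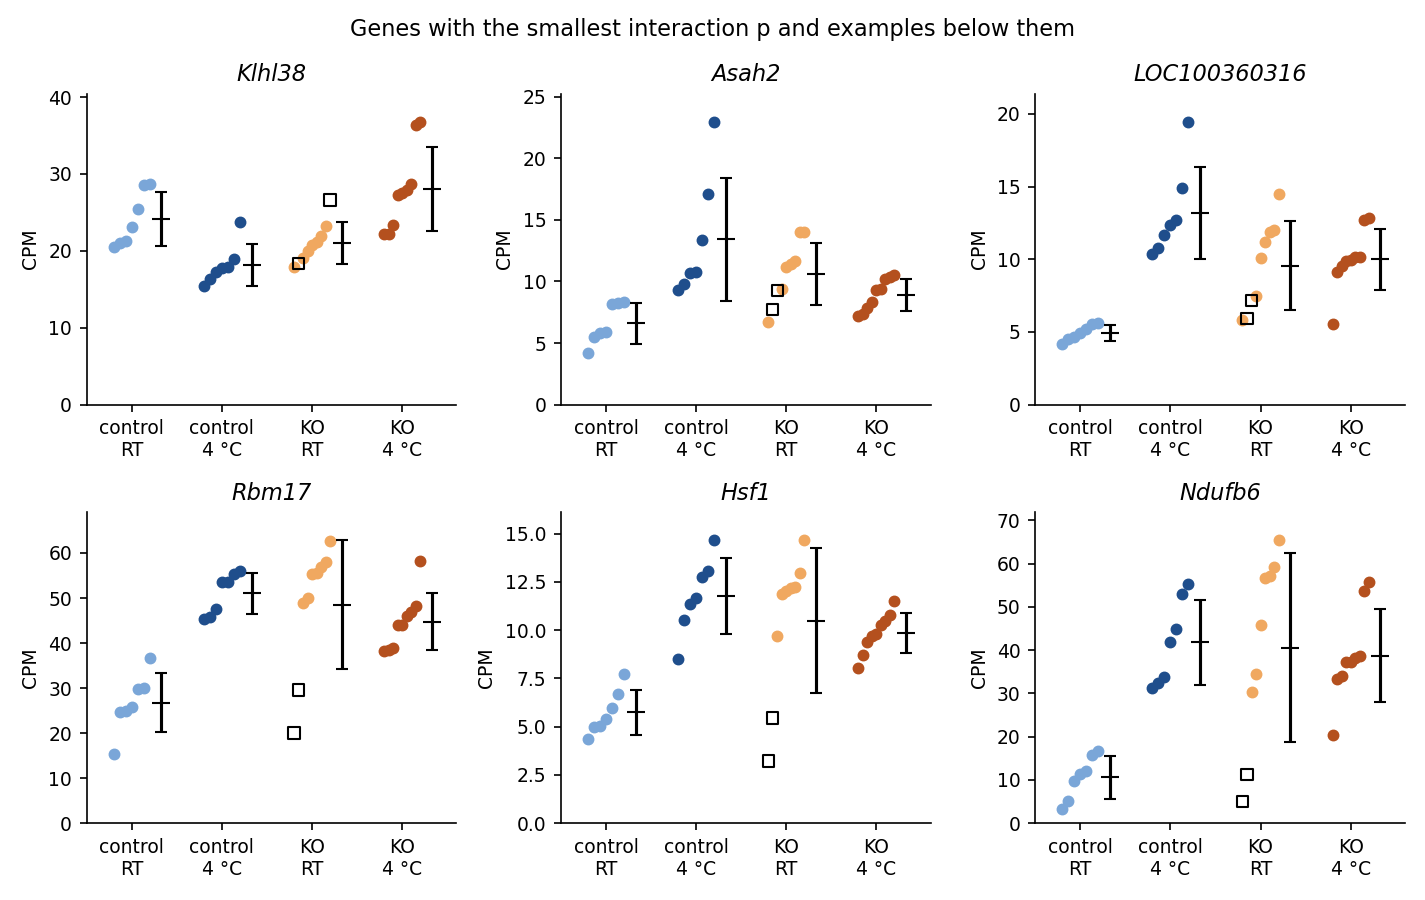
CPM of each library by group for the 3 called genes (top) and for Rbm17, Hsf1 and Ndufb6 (bottom), with mean and SD as bars and KO8 and KO10 as open squares. Klhl38 is highest in KO_4C, whereas in the other 5 genes control_RT is the low group, and in the bottom row KO8 and KO10 lie with it.

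The next genes toward a smaller cold response in knockout muscle did not pass the test (adjusted p from 0.0664 to 0.0872) and are given as values. Rbm17, a splicing factor, held 15.4, 25.8 and 36.8 CPM in control_RT and 45.3, 53.5 and 56.1 CPM in control_4C. In KO_RT it held 20.1, 55.4 and 62.6 CPM and in KO_4C 38.2, 44.1 and 58.2 CPM. The only KO_RT libraries that reached down to the control_RT range were KO10 at 20.1 and KO8 at 29.5 CPM; the other 7 held 48.9 to 62.6 CPM. Its interaction was -1.05 ± 0.23 log2 (adjusted p = 0.0872), and -1.22 (adjusted p = 3.52e-05) without KO8 and KO10. Hsf1, the transcription factor that drives heat shock genes, was also low in control_RT. Its median in control muscle was 5.42 CPM at room temperature and 11.7 CPM at 4 °C. In knockout muscle the means, not medians, were 10.5 ± 3.75 and 9.85 ± 1.06 CPM (SD, n = 9 each). KO10 held 3.22 and KO8 5.45 CPM, and the other 7 KO_RT libraries had a median of 12.2 CPM. The interaction of Hsf1 was -1.13 ± 0.27 log2 (adjusted p = 0.0872), and -1.33 (adjusted p = 3.52e-05) without KO8 and KO10. Both libraries were low for Rbm17 and Hsf1, so leaving them out raised KO_RT and made these interactions more negative by construction.

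Mob1a and Lzts2, an adaptor of the Hippo kinase LATS and a leucine zipper protein, had interactions of -0.99 ± 0.22 and -0.85 ± 0.19 log2. Gng5, a G protein gamma subunit, had -1.15 ± 0.26, Brd1, a scaffold of histone acetyltransferases, -0.65 ± 0.15, and Psmd14, the deubiquitinase of the proteasome lid, -0.57 ± 0.14. Ctss, the lysosomal protease cathepsin S of antigen-presenting cells, stood at -1.41 ± 0.31, and control_RT replicate 4 was its highest warm control library. In all 5 of the genes Mob1a, Lzts2, Gng5, Brd1 and Psmd14 the control_RT median was the lowest of the 4 group medians.

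KO8 and KO10 were below the other 7 KO_RT libraries in Mob1a, Lzts2, Gng5 and Brd1 too, but inside their range in Ctss. In Psmd14 KO8 was the highest of the group at 70.3 CPM and KO10 the lowest at 37.6 CPM.

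In Pla2g2a, a secreted phospholipase A2, KO8 and KO10 lay high. The gene held 1.38, 3.58 and 4.50 CPM in control_RT and 6.06, 13.5 and 17.5 CPM in control_4C, against 2.62, 9.59 and 26.1 CPM in KO_RT and 1.24, 4.70 and 14.0 CPM in KO_4C. KO10 at 26.1 and KO8 at 20.7 CPM were its highest KO_RT libraries, and 7 of the 9 KO_4C libraries stood below every control_4C library. Its interaction was -2.90 ± 0.60 log2 (adjusted p = 0.0664), and -2.28 (adjusted p = 0.00918) without KO8 and KO10. With the index as a covariate it was the only gene called (-3.27 log2, adjusted p = 0.0223).

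In the other direction none of the genes next to Klhl38 by p passed the test (adjusted p from 0.0872 to 0.1003). Traf2, an adaptor of TNF receptor signalling, held medians of 23.4 and 20.3 CPM in control muscle at room temperature and 4 °C and of 18.9 and 26.0 CPM in knockout muscle. Its interaction was 0.67 ± 0.15 log2. It rose in the cold in knockout muscle (0.46 ± 0.10, adjusted p = 0.00146), and the control value was -0.20 ± 0.11 (adjusted p = 0.206). Mrpl45, a mitochondrial ribosomal protein, and Timm8a1, a small chaperone of mitochondrial protein import, also rose in knockout muscle (0.31 ± 0.07 and 0.37 ± 0.08 log2, adjusted p = 0.00218 and 0.00200), with interactions of 0.43 ± 0.10 and 0.50 ± 0.12.

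For Cops6, Exosc4 and Fitm1 it was the control muscle that moved. Cops6, a COP9 signalosome subunit, Exosc4, an RNA exosome subunit, and Fitm1, a lipid droplet protein of muscle, fell in the cold in control rats (log2 -0.43 ± 0.08, -0.31 ± 0.08 and -0.47 ± 0.09, adjusted p = 0.000261, 0.00658 and 0.000534). In knockout muscle the values were 0.01 ± 0.07, 0.15 ± 0.07 and 0.01 ± 0.08, and the interactions were 0.44 ± 0.10, 0.46 ± 0.11 and 0.49 ± 0.13. Sar1b, a GTPase of secretory vesicles, Yipf3, a Golgi protein, and Gja5, the vascular gap junction protein connexin 40, closed the set with 0.46 ± 0.11, 0.44 ± 0.11 and 0.95 ± 0.25.

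Seen over all genes, the negative and the positive differences had a different make-up. The 870 genes of negative interaction at an unadjusted p under 0.05 had a median cold response of 0.76 log2 in control muscle and -0.05 in knockout muscle, and a median level of 10.1 CPM. Their median difference between knockout and control was 0.55 at room temperature and -0.21 at 4 °C. The 629 genes of positive interaction had median cold responses of -0.27 and 0.17 log2, and their median difference between knockout and control was -0.19 at room temperature and 0.23 at 4 °C. Of the 74 genes of the transcript-loss index, 44 were among the 870 and none among the 629; their median interaction was -0.98 log2, and none of the 74 was called by edgeR (3 genes called over all genes).

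The same interaction can be read as the genotype difference at 4 °C minus that at room temperature. At room temperature 303 genes differed between knockout and control muscle (2.61%), 273 higher (2.35%) and 30 lower (0.259%) in knockout. At 4 °C 6 genes did (0.0518%), 4 higher (0.0345%) and 2 lower (0.0173%), by edgeR's quasi-likelihood test, while 1695 (14.6%) stood at an unadjusted p under 0.05. The count at 4 °C was not stable: it was 432 with DESeq2 and ran from 0, for example without control_4C replicate 6, to 556 without control_4C replicate 7. The count at room temperature ran from 80 without control_RT replicate 3 to 792 without KO10. Rbm17, Hsf1 and Ndufb6, which encodes a complex I subunit, were each among the genes higher in knockout muscle at room temperature (log2 0.86, 0.87 and 1.93, adjusted p = 0.00936, 0.0130 and 0.00936). At 4 °C their values were -0.19, -0.26 and -0.11 log2 (adjusted p = 0.648, 0.574 and 0.942).

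The cold responses of the 2 genotypes, which share no library, were alike for the genes with the firmest response. Across all 11594 genes Pearson's r between the responses was 0.495 and Spearman's rho 0.512, and 69.6% of genes had the same sign; genes are not independent replicates, and each genotype's genes share its libraries. Among 5919 genes of at least 10 CPM, r was 0.633, and for 89.3% the 95% interval of the difference lay within 1 log2 unit of 0. Of the genes called for cold, 785 were called in both genotypes, which is 32.7% of the control calls and 49.2% of the knockout calls; 398 rose in both, 386 fell in both, and Klhl38 was the 1 exception. For 89.7% of these 785 genes the interval of the difference lay within 1 log2 unit, but their agreement is in part set by the requirement that both were called.

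Genes called in 1 genotype alone were mostly not shown to differ between genotypes. Of 1614 genes called in control muscle alone, 2 (Asah2 and LOC100360316) passed the interaction test and 749 (46.4%) had an unadjusted interaction p under 0.05. Of 811 called in knockout muscle alone, none passed with edgeR and 228 (28.1%) had an unadjusted p under 0.05. Among the 8384 genes called in neither, 478 (5.70%) did. These sets were formed from the same 2 cold responses that make up the interaction, so the shares are in part set by that choice.

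**Figure D3:**
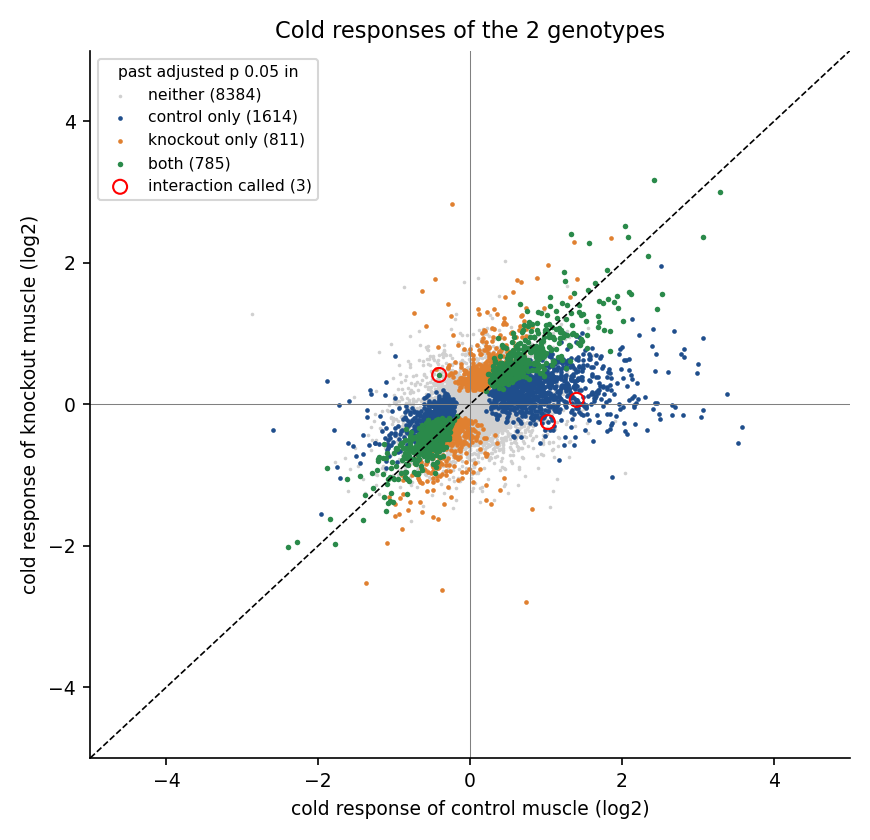
Cold response (log2, 4 °C against room temperature) of each of the 11594 genes tested in control muscle (x) and knockout muscle (y), coloured by where the gene passed an adjusted p of 0.05, with the line of equal response dashed. The 785 genes called in both follow the line, the 1614 called in control alone spread along the x axis, and red circles mark the 3 interaction calls.

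Sln, the sarcolipin gene, rose in the cold in both genotypes. It held 1.67, 2.81 and 4.43 CPM in control_RT and 10.1, 21.7 and 73.1 CPM in control_4C. In knockout muscle it held 0.574, 3.95 and 6.16 CPM at room temperature and 12.9, 31.8 and 42.8 CPM at 4 °C. No cold library overlapped a warm one in either genotype. Sln rose by 3.29 ± 0.43 log2 in control muscle (adjusted p = 8.64e-06) and by 3.01 ± 0.37 in knockout muscle (adjusted p = 1.49e-06). The interaction was -0.28 ± 0.54 (95% interval -1.39 to 0.82), an interval that holds differences of more than 2-fold. Sln is 1 of the 74 index genes, and with the index as a covariate its interaction was 0.89 log2 (adjusted p = 0.495); without KO8 and KO10 it was -0.55 (adjusted p = 0.560).

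Phospholamban (Pln), another SERCA regulator, and Atp2a2, the slow-fibre SERCA pump, rose in both genotypes. Pln rose by 0.65 ± 0.17 and 0.72 ± 0.15 log2 in control and knockout muscle (interaction 0.06, interval -0.39 to 0.51), and Atp2a2 by 0.94 ± 0.17 and 0.80 ± 0.15 (-0.15, -0.61 to 0.32). Ryr1, the calcium release channel, was at 1205 and 842 CPM (medians) in control muscle at room temperature and 4 °C and at 1350 and 798 CPM in knockout muscle. It fell in knockout muscle (log2 -1.08 ± 0.17, adjusted p = 5.35e-05), with -0.43 ± 0.19 in control muscle (adjusted p = 0.114). The interaction of -0.64 ± 0.26 did not pass (adjusted p = 0.275), and KO8 held 3688 CPM of Ryr1, against 1779 CPM in the next KO_RT library. Without KO8 and KO10 the interaction of Ryr1 was -0.35 (adjusted p = 0.248). The voltage sensor of this channel, Cacna1s, fell in both genotypes, with an interaction of -0.36 ± 0.19. Of the 24 calcium-cycling genes tested, 4 rose and 5 fell in control muscle, 4 rose and 4 fell in knockout muscle, and none passed for the interaction. Their median interaction was 0.06, against -0.02 over all genes. Over all genes tested cold called 12.4% higher and 8.28% lower in control muscle and 7.49% and 6.28% in knockout muscle. The cold counts of this and the later lists are to be read beside these shares.

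Chrnd, the delta subunit of the acetylcholine receptor, gave the smallest p among genes that rose with cold in both genotypes. It held 20.7, 23.8 and 33.2 CPM in control_RT and 59.1, 67.1 and 91.6 CPM in control_4C, and 17.7, 24.9 and 31.8 CPM in KO_RT and 61.5, 68.4 and 112 CPM in KO_4C. The cold and warm groups did not overlap in either genotype, and the groups of the 2 genotypes nearly coincided. Its interaction was 0.06 ± 0.19 log2 (interval -0.32 to 0.43). The other genes of smallest p that rose in both were Tmem252, Gpx1, the glutathione peroxidase of the cytosol, Gpnmb, a glycoprotein of phagocytes, and Cst3, the protease inhibitor cystatin C. Their interactions were -0.12 ± 0.21, 0.07 ± 0.16, -0.24 ± 0.27 and -0.07 ± 0.17.

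Among genes that fell in both genotypes, the same rule gave Ppp1r1a, a protein phosphatase inhibitor, Ddx23, a spliceosomal helicase, Mlf1, Actn3, the alpha-actinin of fast fibres, Ccdc91 and Aldoa, the muscle aldolase. Actn3 fell by 0.74 ± 0.11 log2 in control and by 0.66 ± 0.10 in knockout muscle (interaction 0.08, interval -0.23 to 0.39). Aldoa fell by 0.54 ± 0.09 and by 0.53 ± 0.08 (interaction 0.01, interval -0.22 to 0.24). The interactions of the other 4 lay between -0.07 and 0.16 log2.

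**Figure D4:**
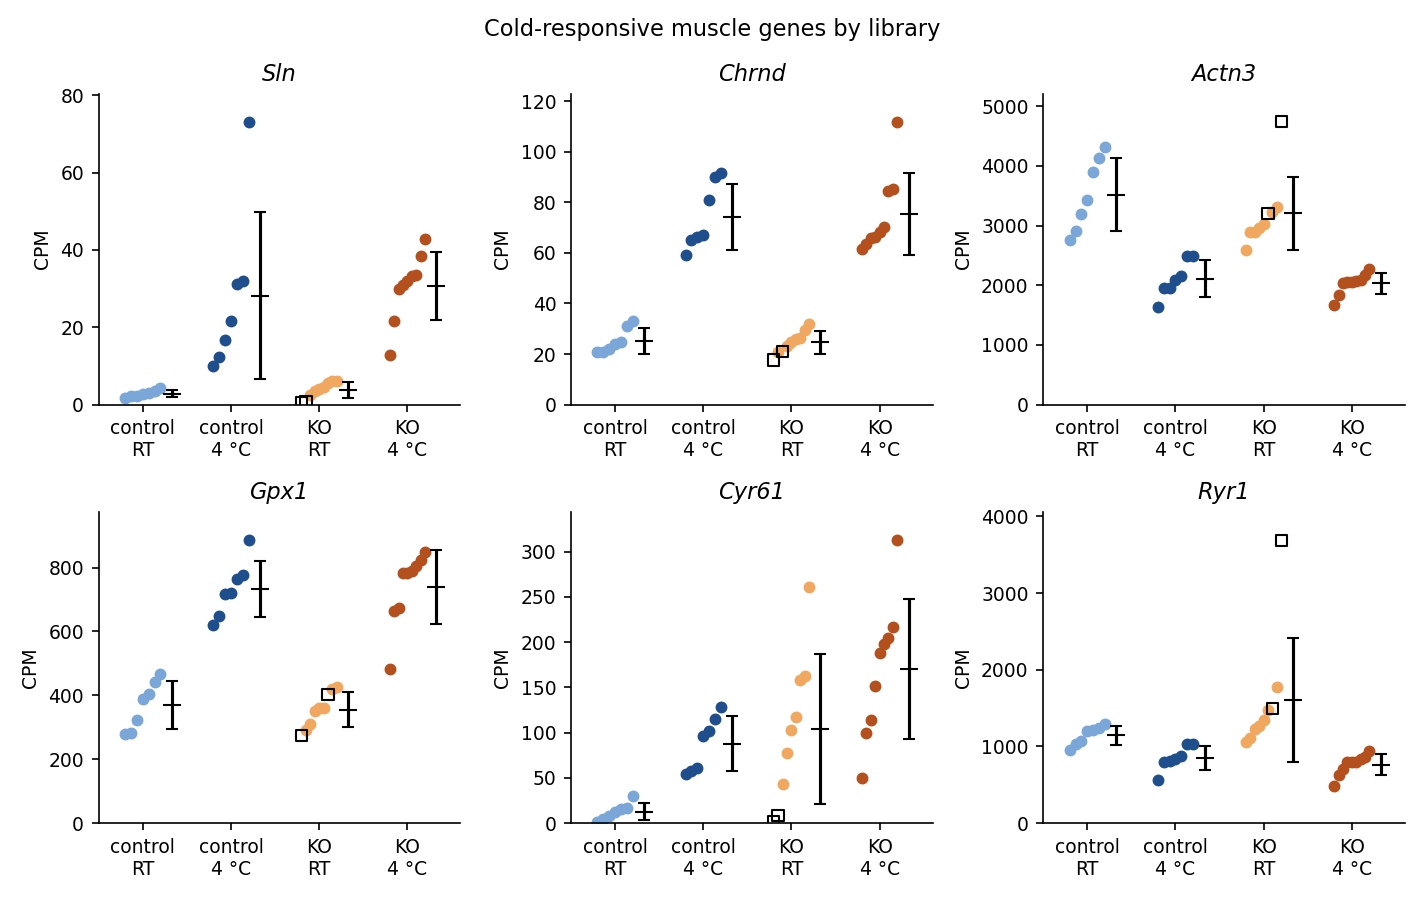
CPM of each library by group for Sln, Chrnd, Actn3, Gpx1, Cyr61 and Ryr1, with mean and SD as bars and KO8 and KO10 as open squares. Sln and Chrnd rise without overlap in both genotypes (Sln from at most 6.16 to at least 10.1 CPM), Cyr61 is low in control_RT, KO8 and KO10, and KO8 stands at 3688 CPM of Ryr1.

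The fibre-type programme moved alike in direction. Of 17 slow oxidative fibre genes tested, 14 rose in control muscle and 14 in knockout muscle, and none passed for the interaction (median -0.06). Myh7, the slow myosin heavy chain, rose by 0.79 ± 0.19 and 0.58 ± 0.17 log2 (interaction -0.21, interval -0.72 to 0.30). Of 18 fast glycolytic fibre genes, 12 fell in control muscle and 9 in knockout muscle, and again none passed for the interaction; 4 of the 18 interactions were negative and their median was 0.14. Myh1, the fast IIx myosin heavy chain, had -0.37 ± 0.15 in control muscle (adjusted p = 0.0833) and -0.47 ± 0.13 in knockout muscle (adjusted p = 0.0164), with an interaction of -0.10 ± 0.20. Gpd1, the glycerol 3-phosphate dehydrogenase of the cytosol, had the smallest interaction p of this list. It held 1257, 1562 and 1888 CPM in control_RT and 729, 869 and 983 CPM in control_4C, without overlap, and 1044, 1276 and 1442 CPM in KO_RT and 780, 1060 and 1181 CPM in KO_4C, with overlap. It fell by 0.84 ± 0.10 and by 0.35 ± 0.09 log2, an interaction of 0.50 ± 0.13 (adjusted p = 0.110).

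Energy metabolism gave no call for the interaction in any list. Among the 44 nuclear-encoded oxidative phosphorylation genes tested, 4 rose and 6 fell in control muscle, 3 rose and 2 fell in knockout muscle, and the median interaction was 0.15. Over all genes 12.4% rose and 8.28% fell in control muscle, and 7.49% rose and 6.28% fell in knockout muscle. Ndufb6 was the member of smallest p: control_RT held 3.17, 11.5 and 16.6 CPM and control_4C 31.1, 41.9 and 55.4 CPM, while KO_RT held 5.08, 45.8 and 65.4 CPM and KO_4C 20.3, 37.4 and 55.8 CPM. KO10 at 5.08 and KO8 at 11.2 CPM lay in the control_RT range and the other 7 KO_RT libraries at 30.4 CPM or more. Its interaction was -2.04 ± 0.50 log2 (adjusted p = 0.0933), and -2.32 (adjusted p = 0.000348) without KO8 and KO10; it too is an index gene. Of 12 genes of mitochondrial DNA, 9 fell in control and 6 in knockout muscle (median interaction 0.21). Mt-atp6, an ATP synthase subunit, had -0.60 ± 0.12 in control muscle and -0.17 ± 0.10 in knockout muscle, an interaction of 0.43 ± 0.16 (adjusted p = 0.223).

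Fatty acid uptake and oxidation behaved alike in counts, with 11 of 24 genes higher and 1 lower in each genotype and a median interaction of 0.14. Its member of smallest p was Etfa, a subunit of the electron transfer flavoprotein (-0.88 ± 0.30, adjusted p = 0.180). Acat1, the mitochondrial thiolase of ketone and isoleucine use, had -0.98 ± 0.26 (adjusted p = 0.106). In KO8 and KO10 Etfa held 28.4 and 22.5 CPM and Acat1 154 and 147 CPM. The lowest of the other 7 KO_RT libraries held 42.5 CPM of Etfa and 230 CPM of Acat1. Ucp2, a mitochondrial carrier related to UCP1, rose by 1.44 ± 0.26 and 1.40 ± 0.23 log2 in control and knockout muscle (interaction -0.03, interval -0.73 to 0.66). Ucp3, its muscle relative, had -0.41 ± 0.30 and 0.28 ± 0.26, neither past the test, and an interaction of 0.68 ± 0.40 (adjusted p = 0.490). Pdk4, which inhibits pyruvate dehydrogenase in fasting, fell in control muscle (-0.85 ± 0.30, adjusted p = 0.0405), with -0.02 ± 0.27 in knockout muscle and an interaction of 0.83 ± 0.40 (adjusted p = 0.378). Ppargc1a, a coactivator that drives the making of mitochondria, had -0.05 ± 0.23 and -0.55 ± 0.20 and an interaction of -0.49 ± 0.30 (interval -1.11 to 0.12).

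**Figure D5:**
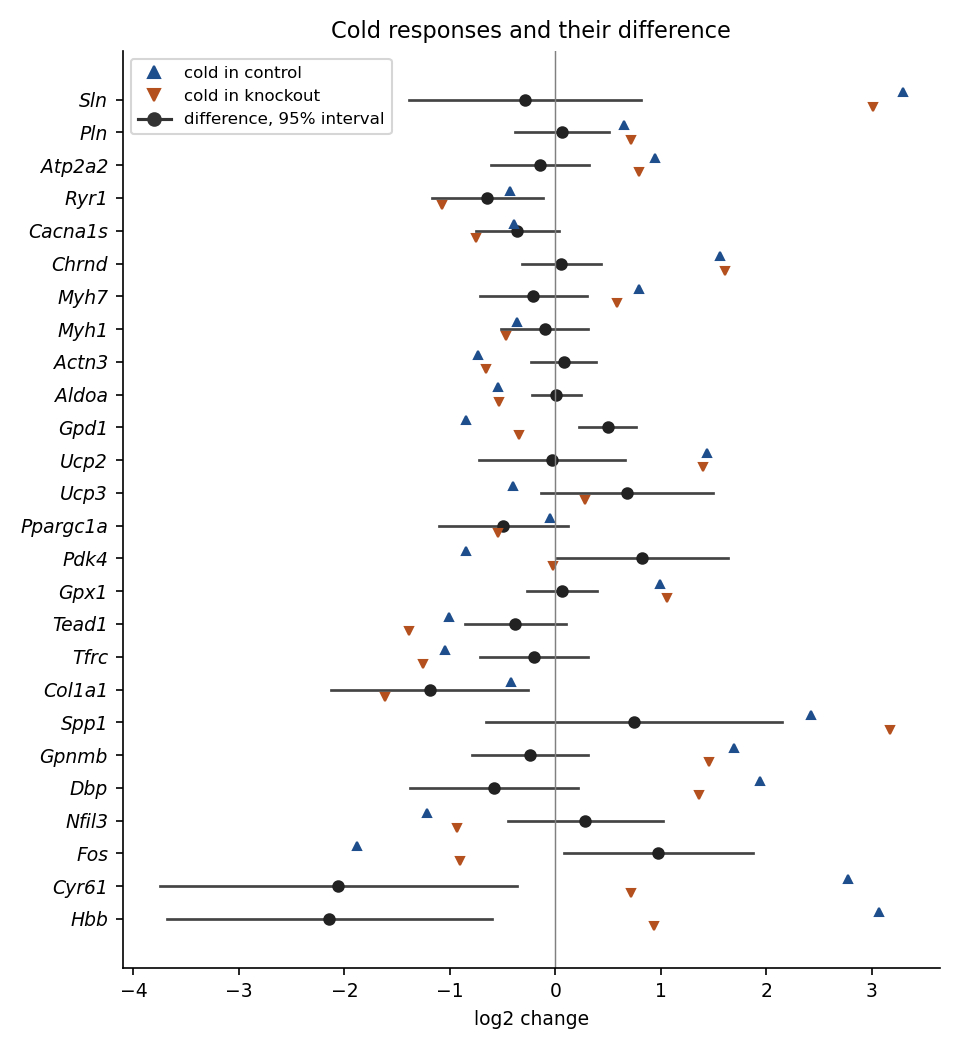
Cold response in control (upward triangles) and knockout muscle (downward triangles) and their difference with its 95% interval (circles and lines), in log2 units, for 26 genes. The intervals of Chrnd (-0.32 to 0.43) and Aldoa (-0.22 to 0.24) are narrow around 0, those of Sln, Spp1, Cyr61 and Hbb wide; none of these genes passed the adjusted test.

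Stress and rhythm genes were also without an interaction call. Of 18 heat shock genes, 7 rose and 1 fell in each genotype (median interaction -0.01). Rbm3, a cold-inducible RNA-binding protein, held medians of 54.9 and 93.0 CPM in control muscle and 64.5 and 69.6 CPM in knockout muscle. It rose in control muscle (0.68 ± 0.13, adjusted p = 0.000433), and the interaction was -0.55 ± 0.17 (adjusted p = 0.154). Of 16 clock genes, 7 rose and 2 fell in control muscle and 4 rose and 1 fell in knockout muscle. Dbp, a clock output factor, rose in both (1.95 ± 0.30 and 1.36 ± 0.26, interaction -0.58 ± 0.39), and Nfil3, its counterpart repressor, fell in both (interaction 0.28 ± 0.36). Of 19 immediate-early genes, 6 rose and 3 fell in control muscle and none rose and 2 fell in knockout muscle. Fos fell in both (-1.88 ± 0.34 and -0.90 ± 0.29), with an interaction of 0.98 ± 0.44 (adjusted p = 0.333).

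Cyr61 is a target of the YAP and TEAD regulators. It held 1.34, 12.3 and 30.4 CPM in control_RT and 54.0, 96.8 and 129 CPM in control_4C. Knockout libraries held 1.86, 103 and 261 CPM at room temperature and 49.5, 188 and 312 CPM at 4 °C. KO10 at 1.86 and KO8 at 8.32 CPM fell in the control_RT range, and the other 7 began at 43.4 CPM. The interaction was -2.06 ± 0.83 log2 (adjusted p = 0.279). Without KO8 and KO10 it was -2.39 and passed (adjusted p = 0.0184). Without these and control_RT replicates 2 and 3 it was -2.01 and did not pass (edgeR quasi-likelihood adjusted p = 0.0503). With the index, of which Cyr61 is a member, as a covariate it was 0.39. Of 16 alternative fits, those that left out 1 library aside, 1 called Cyr61. Tead1, the DNA-binding partner of YAP, fell in both genotypes (-1.01 ± 0.18 and -1.39 ± 0.16, interaction -0.38 ± 0.24), and so did Tfrc, the transferrin receptor (interaction -0.21 ± 0.25).

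Markers of other cell types in the muscle showed the largest shifts of list medians, again with no interaction call in any of the 11 cell type lists. In bulk tissue, fewer cells of a type and less RNA per cell cannot be told apart. No marker tested was at 0 in every library of a group. All 10 tendon genes had a negative interaction (median -0.89), against 52.7% of all genes. Their summed share of counts rose in control muscle from 0.0200% ± 0.0060 to 0.0374% ± 0.0093 (SD, n = 7 and 7) and was 0.0322% ± 0.0169 in KO_RT and 0.0322% ± 0.0135 in KO_4C (n = 9 and 9). Col12a1, a matrix collagen, had the smallest p of the list (-0.84 ± 0.33, adjusted p = 0.250). Col1a1, the main fibrillar collagen, fell in knockout muscle (-1.62 ± 0.31, adjusted p = 0.000523), with -0.42 ± 0.34 in control muscle and an interaction of -1.19 ± 0.46 (adjusted p = 0.253).

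Among 12 adipocyte markers 10 had a negative interaction (median -0.74), and 7 rose in control against 3 in knockout muscle. The summed share nevertheless rose in both genotypes without overlap, from 0.0471% ± 0.0029 to 0.0896% ± 0.0071 in control and from 0.0552% ± 0.0138 to 0.113% ± 0.0194 in knockout muscle. Lipe, the hormone-sensitive lipase, which muscle fibres also express, ran the other way: 22.6, 38.8 and 44.8 CPM in control_RT, 34.2, 41.3 and 52.0 CPM in control_4C, 25.2, 31.8 and 39.1 CPM in KO_RT and 45.6, 54.6 and 61.3 CPM in KO_4C. It rose without overlap in knockout muscle (0.79 ± 0.11, adjusted p = 3.03e-06), with 0.23 ± 0.12 in control muscle and an interaction of 0.56 ± 0.16 (adjusted p = 0.134). Of 13 endothelial markers, 11 had a positive interaction (median 0.31); Emcn, the vascular sialomucin endomucin, had 0.52 ± 0.16 (adjusted p = 0.143). Of 16 macrophage and leukocyte markers, 7 rose in control and 8 in knockout muscle, and the median interaction was 0.01. Spp1, the secreted glycoprotein osteopontin, rose by 2.42 ± 0.51 and 3.17 ± 0.48 log2 (interaction 0.75, interval -0.65 to 2.15).

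Genes listed as intestinal epithelial markers were present in all groups. Whether cells of the muscle express some of them was not tested. Of 25 tested, 24 had a negative interaction (median -0.65); 8 rose in control muscle and none in knockout muscle. Their summed share was 0.0975% ± 0.0448 at room temperature and 0.137% ± 0.0879 at 4 °C in control muscle, and 0.0752% ± 0.0196 and 0.0648% ± 0.0114 in knockout muscle (SD), with the highest library, at 0.294%, in control_4C. The control medians were 0.0896% and 0.0892%. At 4 °C the mean knockout share was below the mean control share (exact two-sided permutation test, p = 0.00385, adjusted p = 0.0178 over 60 tests). The adipocyte and endothelial shares of knockout muscle were above those of control muscle at 4 °C (exact permutation, adjusted p = 0.0115 and 0.0412). Reg3b, an intestinal lectin, had the smallest p of the intestinal list (-2.71 ± 0.69 log2, adjusted p = 0.0985). It is 1 of 3 index genes on this list. KO8 held 1.72 and KO10 0.867 CPM of Reg3b, against 12.5 to 23.5 CPM in the other 7 KO_RT libraries. With the intestinal share as a covariate 5 genes were called for the interaction. Without the 3 libraries of highest share 3 were called. Neither fit called Klhl38 or Asah2 (0.76 and -1.02, adjusted p = 0.0767 and 0.0868, with the covariate). The source of these reads was not tested.

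Hbb, the haemoglobin beta chain of red blood cells, held 0.668, 4.32 and 16.2 CPM in control_RT, 18.1, 29.8 and 163 CPM in control_4C, 1.36, 16.3 and 33.1 CPM in KO_RT and 16.0, 33.6 and 46.4 CPM in KO_4C. Its interaction was -2.14 ± 0.75 log2 (adjusted p = 0.208), and -2.45 (adjusted p = 0.0273) without KO8 and KO10. That was the only 1 of 16 alternative fits, those that left out 1 library aside, that called Hbb. Hbb is an index gene and does not stand for the 7 erythroid genes tested, whose median interaction was -0.31. The mean erythroid share was 0.0384% in control_RT, 0.104% in control_4C (0.380% in replicate 2), 0.0415% in KO_RT and 0.0829% in KO_4C. KO10, at 1.36 CPM the lowest KO_RT library for Hbb, had the highest erythroid share of that group, 0.0770%.

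The number of genes called for the interaction depended on KO8 and KO10 and on the model. Without them 725 genes were called, 519 lower and 206 higher. Since the 2 were singled out for low values of the index genes, leaving them out raises KO_RT for those genes by construction. The same holds for other genes in which both were low, such as Rbm17 and Hsf1. When the 2 control_RT libraries of lowest index (replicates 2 and 3) were left out as well, 288 genes were called, 253 lower and 35 higher. DESeq2 on all libraries called 106 genes, limma voom with quality weights, which gave KO8 and KO10 weights of 0.244 and 0.333, called 593, and a fit with 1 surrogate variable called 55. With the index as a covariate 1 gene was called, and among genes of at least 10 CPM edgeR called 0, with 907 at an unadjusted p under 0.05.

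Of these analyses, 5 were compared because they made many calls. They are DESeq2, voom weights, 1 surrogate variable, and both fits without KO8 and KO10 (with and without control_RT replicates 2 and 3). The 5 use the same libraries and so are not independent. They shared 44 called genes, 38 lower and 6 higher. Fits with few calls are outside this overlap, such as the index covariate with 1 call and the 10 CPM filter with 0. The 44 hold Klhl38, Asah2 and LOC100360316, and among the other genes named above Rbm17, Hsf1, Ndufb6, Pla2g2a, Ctss, Mob1a, Lzts2, Gng5, Brd1, Psmd14, Acat1 and Reg3b on the lower side and Traf2, Cops6, Mrpl45, Sar1b and Timm8a1 on the higher side. Without KO8 and KO10, 4.49% of all genes tested were called lower and 1.78% higher. In that fit 5 of 24 fatty acid genes, 3 of 18 heat shock genes and 3 of 25 intestinal genes were called lower. Called higher were 2 of 18 fast fibre genes and 2 of 13 endothelial genes. The intestinal list holds 3 index genes and the heat shock list 1, which leaving out these libraries raises in KO_RT by construction. The lists are of few genes and were chosen with results known, so these counts are a description. No slow oxidative fibre gene was called for the interaction in any alternative run, DESeq2 included, leaving aside the fits that left out 1 library.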

How the data were processed

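The authors deposited a table of whole-number read counts, indexed by Ensembl gene. Their second table holds normalised signal, in which the authors divided the counts of a library by its size factor (0.523 to 2.06). R 3.4.3, DESeq2 1.18.1 and Rnor_6.0 were used, per the submitters' processing notes; the sources used here name no aligner or counting tool. No deposited count was odd, so reads may have been entered in duplicate; halved counts were one alternative. Totals of 7275508 to 25846976 counts make counting error small except for genes of a few CPM. The signal table was used only for gene symbols. KO_RT libraries are named by their column; the columns KO8 and KO9 could match more than 1 sample label, so they were used as KO_RT libraries with no replicate number.

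Counts were fitted in R 4.3.3 with edgeR 4.0.16 (filterByExpr, minimum count 10; TMM; robust quasi-likelihood fit; 4 group means over 32 libraries), and each contrast was adjusted by Benjamini-Hochberg at 0.05. SE was taken as the size of the log2 value divided by the root of F; CPM carry the SD between libraries. The script was tested on simulated data. Library measures were compared by exact permutation tests. The smallest chi-square per degree of freedom within a group was 5.70, so no library was a duplicate of another in its group. Libraries of different groups were not compared in this way.

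Gene lists (29 programmes, 11 cell types) and the naming rule were chosen with earlier results of these data known. The rule took, in each direction, genes past the threshold and the next by p up to 10 (mean of at least 5 CPM, a symbol that is no placeholder), the member of smallest p of each list, the 6 genes of smallest larger p called for cold in both genotypes, and 21 genes named always; LOC100360316 falls outside it, as do Acta1 and Ckm, which were added as tissue markers. Not all genes so named are printed. Alternatives were RLE factors, TMM without the 20 most abundant genes, no filter, a mean of at least 10 CPM, no robust estimation, DESeq2 1.42.0, limma 3.58.1 voom weights, 1 surrogate variable (sva 3.50.0), covariates, left-out libraries, replicate numbers as a block and other thresholds. The intestinal covariate, the fit without 3 libraries high in intestinal genes, the threshold of 0.1 and the unpaired fit of the numbered pairs were chosen after seeing the data.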

Additional observations from a re-analysis of the deposited data

Results flagged for a closer look

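The interaction itself was past its test for Klhl38 (0.82 log2), Asah2 (-1.28) and LOC100360316 (-1.34), the cold responses of the 2 genotypes differing in each.

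Single libraries stood apart from the rest of their group by Dixon's test at 95%, which flags about 1 in 20 groups by chance; 26 of 356 groups examined (7.3%) were so marked. KO8 was the high library for 8 genes: Ryr1 at 3688 CPM, Myh1 at 55255, Actn3 at 4738, Aldoa at 6384, Ampd1 at 1067, Ppp1r1a at 856, Tead1 at 62.0 and Igfbp4 at 52.5. All 8 are in KO_RT, so KO8 enters their cold response in knockout muscle and their interaction; the cause was not tested. KO9 was high for Col12a1 at 36.9 CPM.

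In control_4C, replicate 2 was high for Hbb at 163 and Sln at 73.1 CPM, replicate 3 for Zfp36 at 29.9, replicate 4 for Ucp3 at 255 and replicate 7 for Klhl38 at 23.8. In control_RT, replicate 4 was high for Ctss at 13.1 CPM and for the intestinal share at 0.191%, and replicate 1 for Hbb at 16.2 CPM.

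In KO_4C, replicate 6 was high for Atp2a2 at 1560 CPM and Chrnd at 112, replicate 7 for Ampd1 at 936 and Rbm17 at 58.2, replicate 4 for Acat1 at 366, replicate 2 for C1qc at 42.6, replicate 1 for Fos at 62.0 and replicate 8 for Pla2g2a at 14.0. Replicate 9 was low for LOC100360316 at 5.57 CPM.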

How the results depend on the processing

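Interaction calls (3; 1 higher, 2 lower in the reported fit) were 1 (0 and 1) with TMM without the 20 most abundant genes and with no filter, 0 (0 and 0) at a mean of at least 10 CPM, 106 (20 and 86) with DESeq2, 593 (141 and 452) with voom weights, 55 (10 and 45) with 1 surrogate variable, 1 (0 and 1) with the index as a covariate, 725 (206 and 519) without KO8 and KO10, 288 (35 and 253) without these and control_RT replicates 2 and 3, 0 (0 and 0) at an adjusted p of 0.01 and 58 (12 and 46) at 0.1. They were 5 (1 and 4) with the intestinal share as a covariate, and without control_4C replicates 3 and 6 and control_RT replicate 4 the higher count was 0. Where the count was 0, the reported fit still had 1499 genes at an unadjusted p under 0.05 (907 among genes of at least 10 CPM).

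Calls for knockout at 4 °C (6) were 121 with RLE factors, 125 with TMM without the 20 most abundant genes, 3 with no filter, 177 at a mean of at least 10 CPM, 160 without robust estimation, 432 with DESeq2, 2 with voom weights, 10 with 1 surrogate variable, 236 with the index, 119 without KO8 and KO10, 81 with counts divided by 2, 0 at an adjusted p of 0.01, 462 at 0.1, 0 with the intestinal share and 0 without the 3 libraries high in it. Calls for knockout at room temperature (303) were 573 with DESeq2, 1391 with voom weights, 1 with the index, 1541 without KO8 and KO10, 708 without these and control_RT replicates 2 and 3, 21 at 0.01 and 607 at 0.1. Cold calls in control (2399) were 1335 with 1 surrogate variable, 384 with the index and 1209 at 0.01, and in knockout (1596) 799 at 0.01. The cause of these shifts was not tested, except that a stricter threshold calls fewer genes by construction.

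Leaving out 1 library at a time gave 0 to 226 interaction calls (0 to 31 higher, 0 to 195 lower), with 0 in 17 of 32 fits, 226 without KO10, 124 without KO8 and 98 without control_RT replicate 4. Calls at room temperature ran from 80 to 792, at 4 °C from 0 to 556, for cold in control from 1806 to 2827 and in knockout from 1331 to 1709. Klhl38, Asah2 and LOC100360316 kept their sign in every alternative run. The replicate block was fitted to the 7 numbered pairs of each genotype, without 4 knockout libraries that had no numbered partner (KO8 among them): it called 1 gene for the interaction (0 higher and 1 lower), 2630 for cold in control and 1126 in knockout muscle, with an adjusted p of 0.0874 for Klhl38 and Asah2 and 0.141 for LOC100360316. The same libraries without pairing called 0 (0 and 0; 1650 at an unadjusted p under 0.05), 2755 and 1101. Same-numbered libraries correlated from -0.224 to 0.187 in control and from -0.002 to 0.146 in knockout rats and did not all correlate best with their own number, so the numbers were not taken to pair samples. Changes of sign with the index as a covariate, among genes not called in the reported fit, were those of Suclg2 (0.06), Cyr61 (0.39), Tagln (0.05), Cst3 (0.22) and Sln (0.89). With counts divided by 2 Klhl38, Asah2 and LOC100360316 kept their calls (0.81, -1.29 and -1.33 log2; adjusted p = 0.0441, 0.0441 and 0.0427).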
